A study of Mus musculus with 2 samples.

Results

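The endocannabinoid set held 10 of the 55536 mouse genes measured, chosen by symbol because their products receive, bind, make or break down endocannabinoids. The members were the receptor genes Cnr1 and Cnr2, the receptor-binding protein gene Cnrip1, the synthetic enzyme genes Dagla, Daglb and Napepld, and the degradative enzyme genes Mgll, Abhd6, Abhd12 and Faah. All 10 symbols were found in the annotation, each at a single gene identifier. Levels came from total RNA-seq of tissue labelled layer of hippocampus, taken from 5xFAD/CAST females that were 8 to 10 months old. The 2 libraries were numbered replicates of 1 group, each made from 300 ng of input RNA together with ERCC spike-ins, and no control group was analysed here. The replicates have separate biosample records but share a donor record, so the labels do not settle whether they came from separate animals, and each SD is the spread of just this pair of samples, which may be technical. 5xFAD is a transgenic line in which the neuronal Thy1 promoter drives human transgenes with familial Alzheimer mutations, APP among them, and CAST is a wild-derived inbred strain.

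Endocannabinoids are lipids that neurons make on demand from membrane phospholipids. In the hippocampus, 2-arachidonoylglycerol (2-AG) is made in the postsynaptic cell by a diacylglycerol lipase, crosses the synapse backwards and acts on the CB1 receptor of the presynaptic terminal, where it lowers transmitter release. Monoacylglycerol lipase and the ABHD hydrolases end that signal. The related lipid anandamide, an N-acylethanolamine, is released from its precursor by NAPE-PLD, among other routes, and is hydrolysed by fatty acid amide hydrolase (FAAH).

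The libraries held 27816845 and 32316737 expected counts in replicates 1 and 2, and a count of 0 allows up to 0.108 and 0.0933 CPM (counts scaled by library size), taking 3 counts as the limit. Reads carry no molecular identifiers, so these limits and all intervals below cover counting error only. Levels are given as TPM, an abundance that divides counts by transcript length and so allows genes to be compared with each other. Markers of the labelled tissue were present, with Prox1 of dentate granule cells at 26.7 ± 0.905 TPM, Wfs1 and Fibcd1 of CA1 pyramidal cells at 59.7 ± 3.09 and 34.2 ± 2.93 TPM (SD, n = 2 throughout). Choroid plexus markers, which do not belong to hippocampal layers, were also present, and their 5 genes summed to 444.79 TPM in replicate 1 and 156.5 TPM in replicate 2. In tissue of mixed cell types, fewer cells of a type and less RNA per cell cannot be told apart.

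Of the 10 members, 9 were detected, meaning that both libraries gave them 1 TPM or more, whereas 60.2% of the 22015 nuclear protein-coding genes reached that level. The exception was Cnr2. The members' median level was 42.7 ± 1.84 TPM, beside 15.3 ± 0.0566 TPM for the 13251 detected nuclear protein-coding genes. The hydrolase gene Abhd12 was highest, followed in order by Mgll, Cnr1, Faah, Cnrip1, Dagla, Abhd6, Daglb, Napepld and Cnr2, as the plot of levels by member shows.

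**Figure D1:**
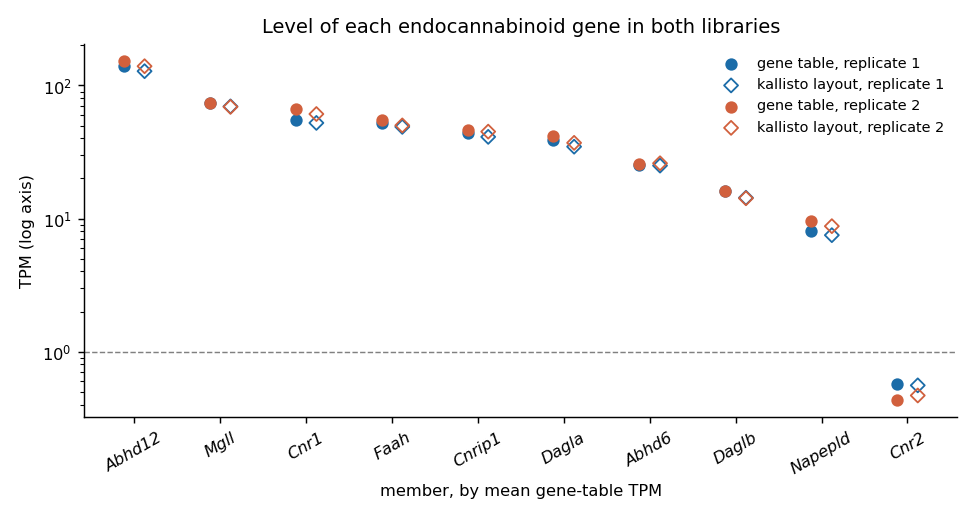
TPM of each member on a log axis, with filled circles for the deposited gene table and open diamonds for the kallisto-layout table summed to genes, blue for replicate 1 and orange for replicate 2. Every member except Cnr2, at 0.57 and 0.43 TPM, lies above the dashed line at 1 TPM in both libraries.

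Cnr1 encodes the CB1 receptor, a Gi/o-coupled receptor that is densest on terminals of CCK interneurons and also present on glutamatergic terminals. Cnr1 (ENSMUSG00000044288.6) lies at chr4:33924593-33948831 on the plus strand (mm10, as for all gene coordinates here). Cnr1 had 55.27 TPM in replicate 1 and 66.45 TPM in replicate 2, from 5904 and 7801 counts, which averages 60.9 ± 7.91 TPM and places it at percentile 88.0 of detected nuclear protein-coding genes. Of all members, Cnr1 had the interval farthest from 0 between the replicates: its log2 ratio of replicate 2 over replicate 1 was 0.20, with a 95% counting interval of 0.15 to 0.25, or 1.15-fold. Markers of glutamatergic neurons ran the same way, with a median log2 ratio of 0.21 over 3 of 3 detected genes and summed levels of 1667 and 1869 TPM. The 3 CCK interneuron markers, all detected, had a median of 0.18 and sums of 229 and 260.3 TPM. Cck alone held 223.69 and 253.22 TPM of these sums, so they describe little besides Cck. Its log2 ratio was 0.163, with Slc17a8 at 0.1833 and Htr3a at 0.4443. Slc17a8 and Htr3a averaged just 1.175 and 5.005 TPM. The 3 GABAergic neuron markers, the wider class of those interneurons, were all detected and had a median of 0.0271 and sums of 184 and 186 TPM, with Gad1 at 0.0271, Slc32a1 at 0.0724 and Gad2 at −0.0767. The part of cell makeup in the Cnr1 difference was not tested.

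Cnr1 RNA fell on 3 annotated transcripts that differ in where they start. Cnr1-201 and Cnr1-202 carry the same reading frame of 473 codons behind different first exons, which begin at positions 33924632 and 33926202, and Cnr1-203 is annotated as noncoding. In the RSEM-layout table Cnr1-201 held 85.5% and 82.9% of the gene's TPM in replicates 1 and 2. Cnr1-202 held 9.28% and 7.91%, and Cnr1-203 held 5.25% and 9.22%. Most receptor RNA was thus assigned to the upstream start in both libraries. The kallisto-layout table gave Cnr1-201 a smaller share, 72.3% and 73.7%, with 14.3% and 10.8% on Cnr1-202 and 13.4% and 15.5% on Cnr1-203.

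The stretches just before these starts differ in base composition, and both are printed because the transcript shares divide between them. They are on the plus strand of GRCm38.p6, from the RefSeq promoter windows, at chr4:33924394-33924631 before Cnr1-201 and at chr4:33926130-33926201 before Cnr1-202. Capitals mark the hexamer CACGTG, the E-box that basic helix-loop-helix factors can bind, which reads the same on both strands.
Cnr1-201 upstream: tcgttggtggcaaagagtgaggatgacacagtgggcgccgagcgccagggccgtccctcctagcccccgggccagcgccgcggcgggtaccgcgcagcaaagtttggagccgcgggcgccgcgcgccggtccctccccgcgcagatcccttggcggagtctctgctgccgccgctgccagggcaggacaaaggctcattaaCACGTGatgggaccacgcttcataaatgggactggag
Cnr1-202 upstream: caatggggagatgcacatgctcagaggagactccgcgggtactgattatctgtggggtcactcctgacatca
The first stretch holds 26 CpG dinucleotides in 238 bases at 68.5% G+C, and its last bases overlap the first exon of Cnr1-203. The second holds 2 CpG in 72 bases at 54.2% G+C. Over the full 300-base windows, CpG observed over expected was 0.9305 nearest Cnr1-201 and 0.3125 nearest Cnr1-202, against a median of 0.3836 over 32851 windows. These windows are set on RefSeq starts 12 bases downstream of the Cnr1-201 start and 178 bases downstream of the Cnr1-202 start. Most of the second window thus lies in the first exon of Cnr1-202, so the 2 values describe unlike positions. CACGTG occurred in 7.15% of all windows and was searched after the sequences had been read. A match describes the letters only.

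Cnr2 encodes the CB2 receptor, known mainly from immune cells such as B lymphocytes and from microglia. Cnr2 (ENSMUSG00000062585.11) lies at chr4:135895394-135920207 on the plus strand. Its level was 0.57 TPM in replicate 1 and 0.43 TPM in replicate 2. These rest on 41 counts (95% exact Poisson interval 29.4 to 55.6) and 36 counts (25.2 to 49.8), or 1.48 and 1.12 CPM, so reads were present well above the limit that a count of 0 allows. Microglial markers were far higher: P2ry12, Tmem119 and Cx3cr1 were all detected and summed to 108.9 TPM in replicate 1 and 110.05 TPM in replicate 2. None of the 3 B lymphocyte markers was detected, and their sums were 0.47 and 0.19 TPM, with Ms4a1 at 0 in replicate 1. The log2 ratio of Cnr2 was −0.37 with an interval of −1.08 to 0.29, too wide at this depth to give a direction.

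The leading Cnr2 transcript was not the same in the 2 libraries. Cnr2-201 and Cnr2-202 encode the same 347 codons and start at positions 135911818 and 135895394. The RSEM-layout table gave all of the gene to Cnr2-201 in replicate 1 and all of it to Cnr2-202 in replicate 2. The deposited posterior SD, which measures how uncertain the assignment of reads was, came to 12 counts on 41 and 9.28 counts on 36. In the kallisto-layout table Cnr2-201 had 0.557 and 0.163 TPM and Cnr2-202 had 0 and 0.304 TPM. The tables thus put Cnr2-201 first in replicate 1 and Cnr2-202 first in replicate 2, on 41 and 36 counts in the gene table, and no direction is read from it.

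Cnr1 exceeded Cnr2 by 97.0-fold in replicate 1 and 154.5-fold in replicate 2, on average 126 ± 40.7. The Cnr1 level was higher and the Cnr2 count lower in replicate 2.

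Cnrip1 encodes a protein that binds the carboxy-terminal tail of CB1. Cnrip1 (ENSMUSG00000044629.5) lies at chr11:17051586-17079371 on the plus strand. Cnrip1 had 43.79 TPM in replicate 1 and 46.56 TPM in replicate 2, or 45.2 ± 1.96 TPM at percentile 82.6. The receptor gene stood above it by 1.26-fold and 1.43-fold in the same libraries. Its counts of 1374 and 1640 gave a log2 ratio of 0.0504, with an interval of −0.0539 to 0.15 that spans 0. Cnrip1-201, with 164 codons, held 84.6% and 87.3% of the TPM. The retained-intron transcript Cnrip1-203 held 12.8% and 9.15%. Cnrip1 overlaps Plek, a gene on the opposite strand, by 796 bases at gene level, and Plek stood at 17.7 ± 0.573 TPM. The labels name a directional library kit, but the sources used here do not say how strand entered the counting.

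The enzymes of 2-AG and anandamide turnover other than NAPE-PLD are serine hydrolases, so a transcript without the codon of the catalytic serine cannot encode the active site. In the lipases and ABHD enzymes the serine sits between glycines in the nucleophile elbow (glycine, any residue, serine, any residue, glycine), with threonine before the serine in Abhd6 and histidine in the others. FAAH instead belongs to the amidase signature family. A transcript is said to hold the serine codon only where its annotated reading frame, with a complete start, includes that codon. Transcripts without such a frame were counted as lacking it, even where their exons may contain the bases. The coding runs below are from GENCODE M21 transcripts, 5′ to 3′ on the coding strand, with the serine codon in capitals.
Dagla: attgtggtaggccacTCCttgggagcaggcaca
Daglb: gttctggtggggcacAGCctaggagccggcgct
Mgll: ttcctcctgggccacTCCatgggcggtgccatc
Abhd6: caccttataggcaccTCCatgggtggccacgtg
Abhd12: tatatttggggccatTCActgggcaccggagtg
Faah: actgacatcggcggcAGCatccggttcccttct
The codons encode serine 472 of Dagla, 443 of Daglb, 122 of Mgll, 148 of Abhd6, 246 of Abhd12 and 241 of Faah, all within coding exons. The runs lie at chr19:10254890-10254922 for Dagla (minus strand), chr5:143494554-143494586 for Daglb (plus), chr14:8042730-8042762 for Abhd6 (plus) and chr4:116005047-116005079 for Faah (minus). The runs of Mgll and Abhd12 cross a splice junction, and their serine codons lie at chr6:88808142-88808144 (plus) and chr2:150839731-150839733 (minus). Dagla, Mgll and Abhd6 use the codon TCC, Abhd12 uses TCA, and Daglb and Faah use AGC.

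Dagla encodes diacylglycerol lipase alpha, the main 2-AG-forming enzyme at hippocampal synapses in mice. Dagla (ENSMUSG00000035735.10) lies at chr19:10245265-10304877 on the minus strand. Dagla had 38.95 TPM in replicate 1 and 41.39 TPM in replicate 2, or 40.2 ± 1.73 TPM at percentile 80.0. Its counts of 4202 and 4995 gave a log2 ratio of 0.0445 with an interval of −0.015 to 0.10, which spans 0. Nearly all of the TPM, 99.2% and 95.9%, was on Dagla-201, the transcript with 1044 codons and the serine codon.

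Daglb encodes diacylglycerol lipase beta, the isoform that forms 2-AG in microglia and macrophages of mice. Daglb (ENSMUSG00000039206.13) lies at chr5:143464584-143505942 on the plus strand. Daglb had 16.19 TPM in replicate 1 and 16.23 TPM in replicate 2, or 16.2 ± 0.0283 TPM, close to the middle of the detected genes at percentile 52.0. The log2 ratio of its 1372 and 1609 counts was 0.025, with an interval of −0.0798 to 0.13. Its coding transcript Daglb-201, with 669 codons and the serine codon, held 84.0% and 89.1% of the TPM, and 3 retained-intron transcripts held the other 16.0% and 10.9%. The gene overlaps Rac1 on the opposite strand by 2309 bases, and Rac1 stood far higher, at 174 ± 11.3 TPM. Dagla exceeded Daglb by 2.41-fold in replicate 1 and 2.55-fold in replicate 2. The alpha isoform took 71.2% ± 0.845 of the summed diacylglycerol lipase TPM.

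Napepld encodes NAPE-PLD, a zinc hydrolase that releases anandamide and other N-acylethanolamines from membrane precursors. Napepld (ENSMUSG00000044968.16) lies at chr5:21662901-21701396 on the minus strand. Napepld had 8.07 TPM in replicate 1 and 9.56 TPM in replicate 2, or 8.82 ± 1.05 TPM, the lowest level of the 9 detected members, at percentile 33.1. Its counts of 609 and 817 gave a log2 ratio of 0.22 with an interval of 0.0659 to 0.37, which leaves out 0. Both annotated transcripts encode 396 codons and start 2 bases apart. Napepld-202 held 95.04% and 82.6% of the TPM, and Napepld-201 held 4.96% and 17.4%. The level on Napepld-202 was nearly the same in both libraries, 7.67 and 7.9 TPM, while Napepld-201 was assigned 0.4 and 1.66 TPM with posterior SDs of 28.3 counts on 28.15 and 45.8 counts on 135. Most of the higher level of replicate 2 thus sat on Napepld-201, whose posterior SD in replicate 1 was as large as its count.

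Mgll encodes monoacylglycerol lipase, which hydrolyses most 2-AG in mouse brain and is presynaptic in the hippocampus. Mgll (ENSMUSG00000033174.17) lies at chr6:88724412-88828360 on the plus strand. Mgll had 73.63 TPM in replicate 1 and 73.52 TPM in replicate 2, or 73.6 ± 0.0778 TPM at percentile 90.6. The log2 ratio of its 4823 and 5588 counts was 0.0075 with an interval of −0.0483 to 0.0634, and under scaling by library size the ratio was −0.0043. Of the 10 annotated transcripts, 5 hold the serine codon in their annotated reading frame, and these took 90.6% ± 0.991 of the TPM. Mgll-205, a coding transcript of 116 codons, ends before it and held 2.50% and 2.49%.

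Within Mgll the gene level was stable but the split among its coding transcripts was not. Mgll-204 held 49.5% and 61.1% of the TPM in replicates 1 and 2. Mgll-201, which encodes the same 303 codons, held 20.8% and 18.7%, and Mgll-207, with 319 codons, held 18.3% and 11.4%. These 3 transcripts have 8 exons each and differ in their first exon. Their posterior SDs of 177 to 335 counts show that many reads could not be placed on 1 of them. In the kallisto-layout table Mgll-204 held more, 59.6% and 66.7%, Mgll-201 held 11.98% and 11.9%, and Mgll-207 held 14.2% and 9.01%.

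The stretch before Mgll-204 is printed because that transcript leads the gene in both tables. It lies at chr6:88724162-88724411 on the plus strand of GRCm38.p6 (RefSeq), ending at the base before the transcript start, with CACGTG in capitals.
Mgll-204 upstream: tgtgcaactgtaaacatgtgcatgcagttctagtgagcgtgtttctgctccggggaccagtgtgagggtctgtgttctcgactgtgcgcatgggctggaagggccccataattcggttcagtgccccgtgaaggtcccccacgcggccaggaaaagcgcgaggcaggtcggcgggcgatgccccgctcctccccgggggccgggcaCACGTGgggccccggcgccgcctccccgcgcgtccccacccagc
It holds 23 CpG in 250 bases at 68.0% G+C. RefSeq places a further Mgll start at the first base of Mgll-207, where CpG observed over expected reached 1.08 (percentile 97.4 of all windows), against 0.8715 at the Mgll-204 start. In all, 13 windows matched 8 members, and CACGTG was in 2 of the 13, those at the Cnr1-201 and Mgll-204 starts, beside 7.15% of all windows. Windows of the same gene overlap for Abhd6 and Mgll, so the 13 are not independent. Dagla and Abhd12 had no window. The 2 Cnr2 windows were poor in CpG, at 0.16 and 0.187 observed over expected.

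Abhd6 encodes a membrane hydrolase that breaks down 2-AG on the postsynaptic side. Abhd6 (ENSMUSG00000025277.14) lies at chr14:8002902-8056763 on the plus strand. Abhd6 had 25.21 TPM in replicate 1 and 25.92 TPM in replicate 2, or 25.6 ± 0.502 TPM at percentile 67.4. Its counts of 966 and 1179 gave a log2 ratio of 0.0824 with an interval of −0.0414 to 0.21. All 3 of its transcripts are coding and hold the serine codon. Abhd6-202 held 78.7% and 83.1% of the TPM and Abhd6-201, which encodes the same 336 codons, held 21.3% and 9.22%. Abhd6-203, with 289 codons, was at 0 in replicate 1 and held 7.64% in replicate 2, and the kallisto-layout table had it at 0 in both. That table split the other pair almost alike in both libraries, with 70.1% and 70.2% on Abhd6-202 and 29.9% and 29.8% on Abhd6-201, so the lower Abhd6-201 share of replicate 2 was seen in the RSEM layout only.

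Abhd12 encodes a membrane hydrolase that acts on lysophosphatidylserine and also on 2-AG, and its loss in people causes the neurodegenerative disease PHARC. Abhd12 (ENSMUSG00000032046.15) lies at chr2:150832493-150904741 on the minus strand. Abhd12 had 139.36 TPM in replicate 1 and 152.88 TPM in replicate 2, or 146 ± 9.56 TPM, the highest level of the set, at percentile 96.5. Its 4732 and 5704 counts gave a log2 ratio of 0.0646, with an interval of 0.0088 to 0.12 that only just left out 0. The coding transcript Abhd12-201, with 398 codons, held 107.77 TPM (77.3%) and 105.59 TPM (69.1%). The coding level was slightly lower in replicate 2, and the higher gene level of that library lay on other transcripts.

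Abhd12-207 was the transcript whose mean TPM differed most between the tables. It is annotated as a processed transcript without a reading frame and starts inside the gene, at position 150842570, where Abhd12-201 starts at 150904741. The RSEM-layout table gave Abhd12-207 24.32 TPM in replicate 1 and 34.85 TPM in replicate 2, or 17.5% and 22.8% of the gene. The kallisto-layout table gave it 0.813 and 5.53 TPM, and placed 7.84% and 11.5% of the gene on transcripts annotated for nonsense-mediated decay, where the other table had 0.545% and 2.48%. The share of Abhd12 TPM on transcripts with the serine codon was 73.7% ± 5.64 in the RSEM layout and 84.2% ± 5.16 in the kallisto layout. In level that was 107 ± 1.19 and 112 ± 0.0537 TPM, above the whole Mgll gene in either table.

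Faah encodes the membrane amidase that hydrolyses anandamide and other fatty acid amides. Faah (ENSMUSG00000034171.13) lies at chr4:115967145-116017926 on the minus strand. Faah had 51.91 TPM in replicate 1 and 55.1 TPM in replicate 2, or 53.5 ± 2.26 TPM at percentile 86.1. Its 2854 and 3562 counts gave a log2 ratio of 0.11 with an interval of 0.0434 to 0.19, which leaves out 0. On the anandamide side the gene for breakdown was above the NAPE-PLD gene, by 6.43-fold in replicate 1 and 5.76-fold in replicate 2. Set against coding Napepld transcripts, the Faah transcript with the serine codon alone was 3.16-fold and 3.02-fold higher in the RSEM layout, and 2.86-fold and 2.71-fold in the kallisto layout.

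Faah TPM was divided almost evenly between its coding transcript and noncoding ones. Faah-201, with 579 codons and the serine codon, held 49.1% and 52.4% of the TPM. Retained-intron transcripts, 5 in number, held 42.3% and 39.7%, led by Faah-203 with 20.96% and 17.3% and Faah-206 with 9.58% and 10.5%. The noncoding total of 49.2% ± 2.32 put Faah at percentile 89.1 of detected genes, whose median was 11.8%, while the median over members was 7.07%. Short transcripts weigh more in TPM than in reads: by counts Faah-201 held 65.4% and 67.7%. On its own the coding transcript had 25.5 TPM in replicate 1 and 28.88 TPM in replicate 2. The kallisto-layout table put Faah-201 at 43.9% and 47.5%, also below the coding share of every other member.

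**Figure D2:**
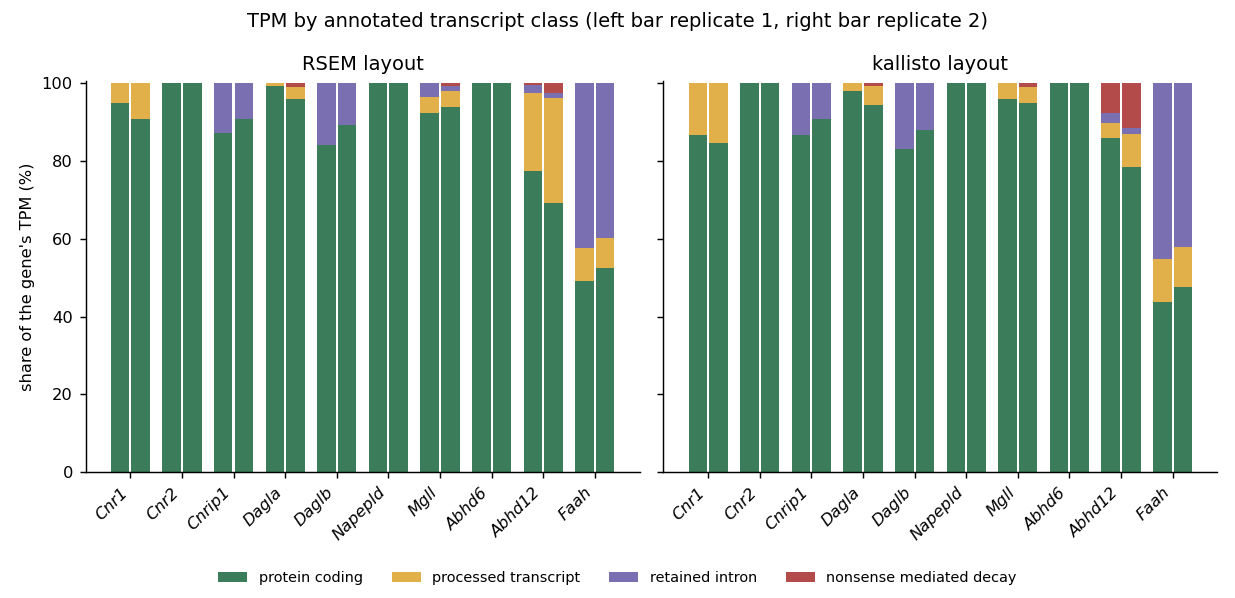
Share of each member's TPM, in percent, on transcripts annotated as protein coding, processed transcript, retained intron or nonsense-mediated decay, with the RSEM layout in the left panel, the kallisto layout in the right panel, and replicate 1 left of replicate 2 in each pair of bars. Faah has the smallest coding share in both panels, and Abhd12 is the member whose noncoding classes differ most between the panels.

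Among the 45 annotated transcripts of the members, 21 held a mean of at least 10% of their gene's TPM in either table. The posterior SD of the gene's count was 0 in both libraries for 9 members, and for Abhd6 it was 0.11 counts in replicate 1, so hardly any uncertainty of the gene totals came from reads shared with other genes. The plot of transcript shares shows where tables and replicates part.

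**Figure D3:**
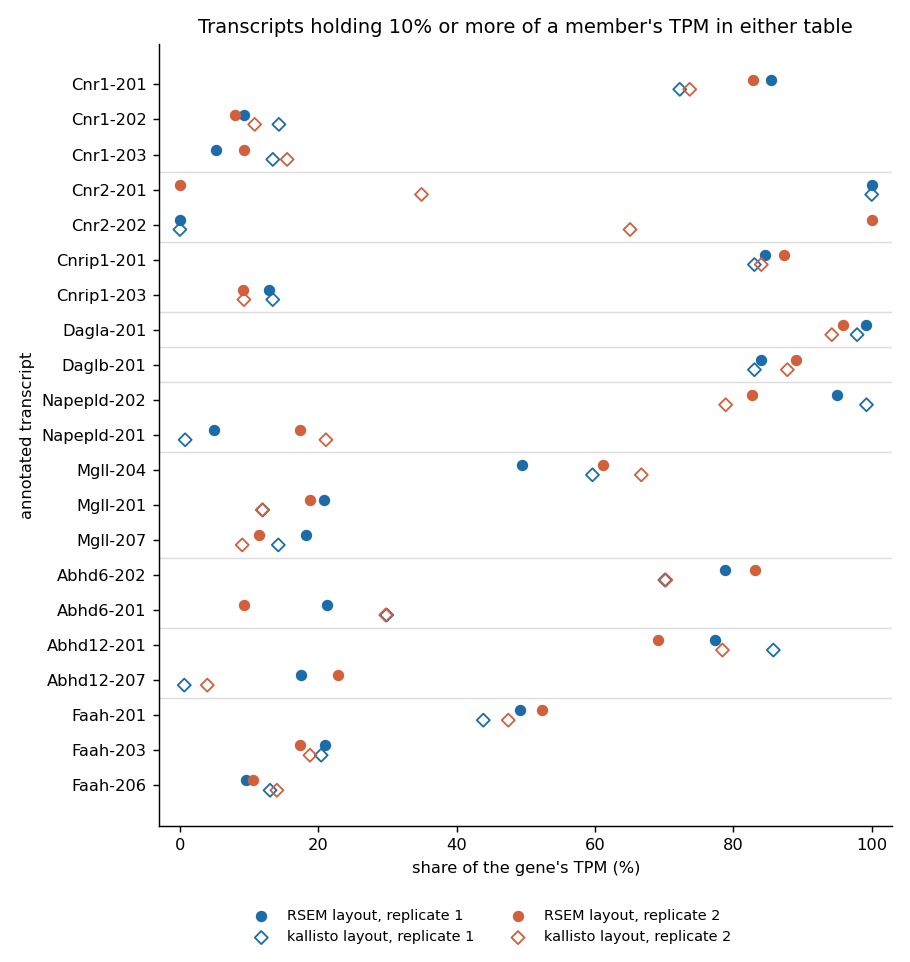
Share of the gene's TPM, in percent, on each transcript with at least 10% in either table, with filled circles for the RSEM layout, open diamonds for the kallisto layout, blue for replicate 1 and orange for replicate 2. The 4 Dagla-201 values lie between 94.2% and 99.2%, while the Cnr2-201 values spread from 0% to 100% and Abhd12-207 splits by table.

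Neighbours in the order of levels had ranges over the 2 libraries that did not overlap at any of the 9 steps, in the gene table and in the kallisto-layout table alike. Each range is of 2 values. The narrowest gap was between Cnr1 and Faah, where the lower Cnr1 value of 55.27 TPM lay just above the higher Faah value of 55.1 TPM. In means, Abhd12 was 1.99-fold above Mgll, Mgll 1.21-fold above Cnr1, Cnr1 1.14-fold above Faah, Faah 1.18-fold above Cnrip1 and Cnrip1 1.12-fold above Dagla. The steps below Dagla were 1.57-fold to Abhd6, 1.58-fold to Daglb, 1.84-fold to Napepld and 17.6-fold to Cnr2.

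The summed RNA of the 3 genes for 2-AG hydrolases exceeded that of the 2 diacylglycerol lipase genes. Mgll, Abhd6 and Abhd12 summed to 238 TPM in replicate 1 and 252 TPM in replicate 2, and Dagla and Daglb to 55.1 and 57.6 TPM. The ratio was 4.32 and 4.38, or 4.35 ± 0.0418, so it varied little between the libraries. Counting only transcripts with the serine codon it was 3.82 and 3.69 in the RSEM layout, and 4.38 and 4.25 in the kallisto layout. Abhd12 made up 59.5% ± 1.47 of the summed hydrolase TPM, Mgll 30.02% ± 1.25 and Abhd6 10.4% ± 0.220. The size of the ratio thus rests largely on Abhd12, whose enzyme also acts on lysophosphatidylserine. Mgll alone, at 73.63 and 73.52 TPM, was above the summed lipases in both libraries by a smaller margin. The order at the RNA level thus had Abhd12 first and Mgll at 0.528 and 0.481 of it. Mgll stood above Abhd6 by 2.92-fold and 2.84-fold. These are ratios of RNA and say nothing of enzyme amount or activity.

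No member passed 2-fold between the replicates, where 2.68% of the 18906 genes that averaged 10 counts or more did. All 10 members passed that count filter. The counting interval left out 0 for 4 members, Cnr1, Napepld, Abhd12 and Faah, beside 25.8% of tested genes, and all 4 were higher in replicate 2. Their folds lay between 1.05 and 1.16. Under scaling by library size Abhd12 was not among them, and under spike-in scaling the number was 8, beside 33.0% of tested genes. The median log2 ratio was 0.0575 over the members and −0.002 over the tested genes. The median absolute ratio was 0.0735 over the members and 0.12 over the tested genes. Over the 13097 genes that averaged 100 counts or more, as all members except Cnr2 did, it was 0.087. Neuronal markers (3 of 3 detected) also stood higher in replicate 2, at a median log2 ratio of 0.12 and sums of 1291 and 1421 TPM in replicates 1 and 2. Oligodendrocyte markers, also 3 of 3 detected, went the other way at −0.31, with sums of 1431 and 1174 TPM. Astrocyte markers, 3 of 3 detected, had a median of −0.14 and sums of 943 and 959 TPM, and choroid plexus markers, 5 of 5 detected, a median of −0.84. Log2 ratios rest on TMM-scaled counts and sums on TPM, so these measures can differ in direction. The astrocyte marker Slc1a2 had a log2 ratio of −0.0374 but 811.35 and 835.79 TPM in replicates 1 and 2. Microglial markers, 3 of 3 detected, went both ways: P2ry12 was at 0.23, Tmem119 at −0.18 and Cx3cr1 at −0.15, and the sums were 108.9 and 110.05 TPM. The part of any of these in the members' ratios was not tested.

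**Figure D4:**
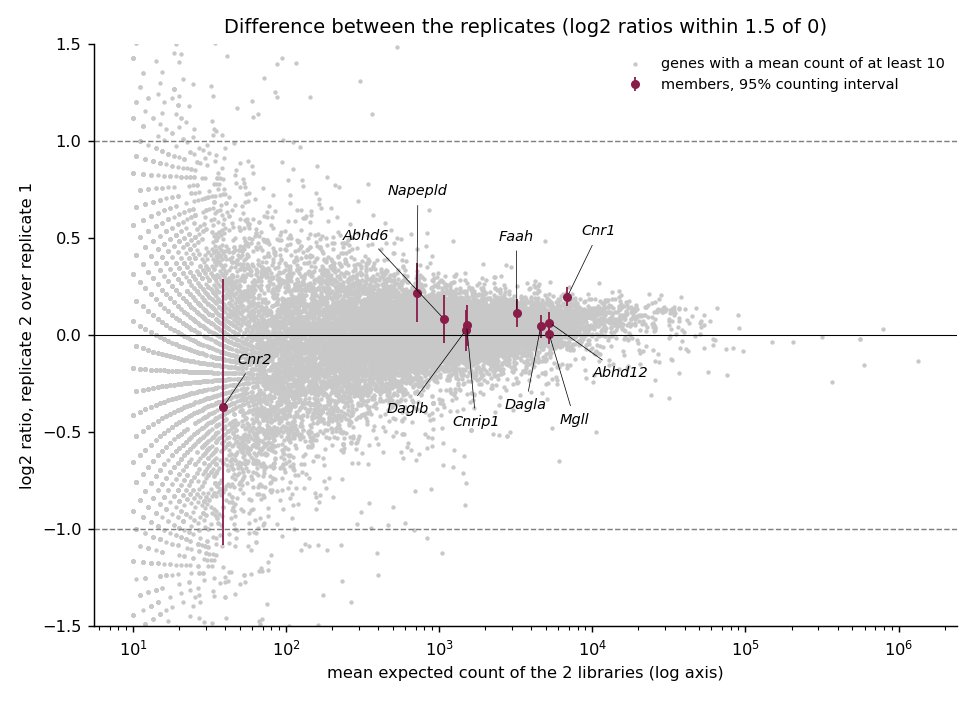
Log2 ratio of replicate 2 over replicate 1 against the mean expected count (log axis), with members in dark red with 95% counting intervals, tested genes in grey and dashed lines at 2-fold; 164 genes beyond 1.5 on the log2 scale are not drawn. All member points lie between the dashed lines, Cnr1 and Napepld highest at 0.20 and 0.22, and Cnr2 lowest at −0.37 with the widest interval.

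The genes around the members were read from 6 lists. Upstream of 2-AG stand the receptors that couple to Gq, the G protein subunits and the beta phospholipases that yield diacylglycerol. All 10 of these genes were detected, at a median of 33.2 ± 1.24 TPM. The highest were Grm5, the group I metabotropic glutamate receptor of pyramidal cells, at 94.8 ± 7.02 TPM, and Gnaq, the Gq alpha subunit, at 72.1 ± 3.32 TPM. Chrm1, the M1 muscarinic receptor, followed at 66.3 ± 7.01 TPM and Plcb1 at 53.9 ± 5.82 TPM. Plcb4, which had 19.99 TPM in replicate 1 and 7.99 TPM in replicate 2 (log2 ratio −1.04), was the 1 gene of the list past 2-fold and is named after its values were seen.

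CB1 partners and effectors were the list with the highest median, with 9 of 9 detected at a median of 111 ± 5.56 TPM and none past 2-fold. Gnao1, the Go alpha subunit that CB1 couples to, stood at 270.1 ± 12.1 TPM, and Gnai2, an inhibitory alpha subunit, at 119 ± 0.552 TPM. Gprasp1, which sorts receptors including CB1 to lysosomes, was at 130.2 ± 2.75 TPM and Adcy1, an adenylyl cyclase, at 127 ± 0.658 TPM. All 4, named as the highest of the list, were above Cnr1 itself. Sgip1 and Gnai1 were also above Cnr1 in both libraries, and Arrb1 in replicate 1 only. Arrb2, at 44.15 and 42.83 TPM, and Gnai3, at 11.93 and 12.09 TPM, were below Cnr1 in both.

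Other routes to N-acylethanolamines were represented by 6 of 7 detected genes with a median of 16.5 ± 1.35 TPM and none past 2-fold. Gde1, a glycerophosphodiesterase, reached 84.0 ± 4.89 TPM, Abhd4, which deacylates the precursor, 35.0 ± 0.516 TPM, Inpp5d 29.7 ± 2.06 TPM and Gdpd1 16.5 ± 1.35 TPM. Each of these 4 lay above Napepld in both libraries. Pla2g4e, at 5.91 and 6.09 TPM, and Gdpd3, at 1.78 and 2.33 TPM, were also detected and lay below Napepld in both. Inpp5d, which encodes the phosphatase SHIP1, is also a microglial gene. Ptpn22, the gene not detected, is an immune phosphatase gene.

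Other enzymes of endocannabinoid breakdown and oxidation were represented by 3 of 5 detected genes, a median of 4.64 ± 0.523 TPM and none past 2-fold. Naaa, the lysosomal acid amidase of N-acylethanolamines, stood at 24.9 ± 2.14 TPM. Ptgs2, cyclooxygenase 2, which oxygenates 2-AG and anandamide, was at 6.62 ± 0.290 TPM and Lipe, hormone-sensitive lipase, at 4.64 ± 0.523 TPM. The lipoxygenase genes Alox12 and Alox15 stayed below 1 TPM in both libraries. The whole Faah gene was above Naaa in each library. Its coding transcript Faah-201, at 25.5 and 28.88 TPM, was below Naaa in replicate 1 (26.44 TPM) and above it in replicate 2 (23.41 TPM).

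Other receptors of the same lipids were sparse: 2 of 7 were detected and the median was 0.240 ± 0.0141 TPM, with none past 2-fold among the 4 with enough counts. The nuclear receptor genes Ppard and Ppara were at 13.2 ± 1.56 and 1.52 ± 0.636 TPM. Gpr18 and Gpr119 had a count of 0 in both libraries, which allows up to 0.108 and 0.0933 CPM. The ion channel gene Trpv1 had 4 counts in replicate 1 and 0 in replicate 2, and Gpr55 had 18 and 19. Cnr1 was above each of these receptor genes in both libraries. The 4 lipid carriers were all detected, at a median of 44.6 ± 0.983 TPM, with Fabp5 at 59.0 ± 2.34, Scp2 at 48.2 ± 5.55, Fabp3 at 40.9 ± 3.59 and Fabp7 at 36.2 ± 0.559 TPM. None of them passed 2-fold.

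**Figure D5:**
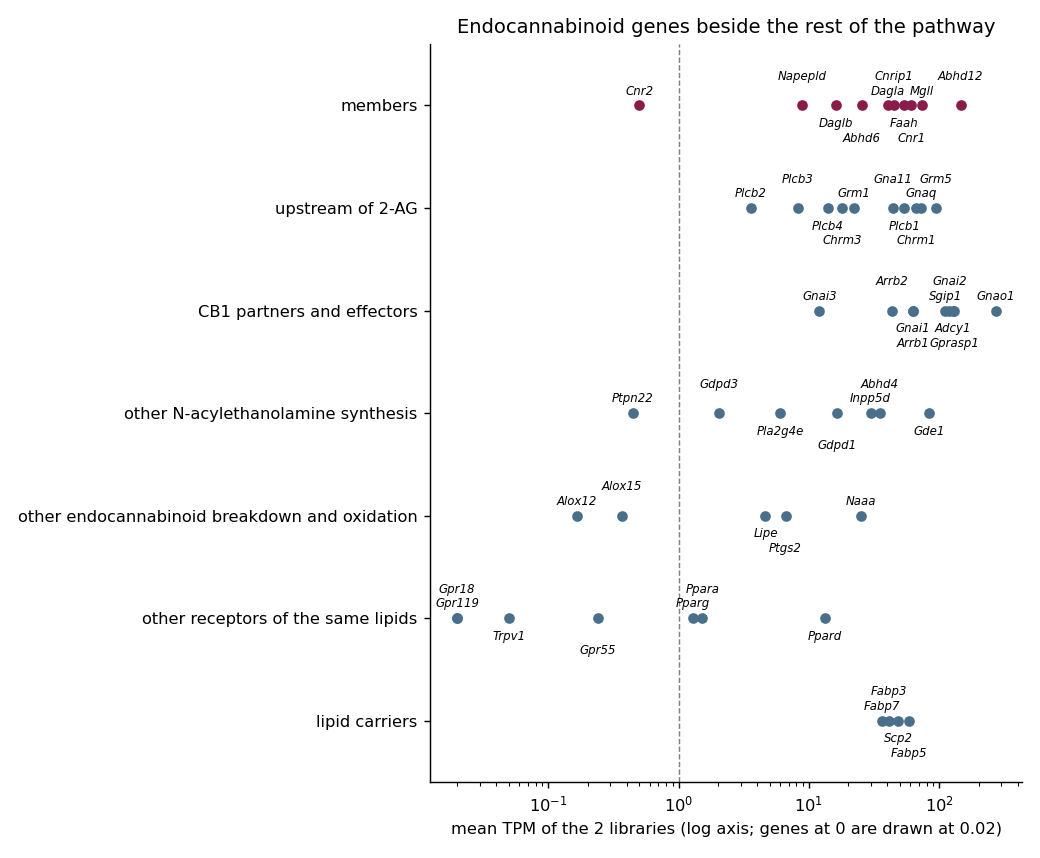
Mean TPM over both libraries on a log axis for the members (dark red, top row) and the genes of 6 pathway lists (blue), with a dashed line at 1 TPM and genes at 0 drawn at 0.02. The upstream, partner and carrier lists lie to the right of the line throughout, while Gpr18, Gpr119, Trpv1 and Gpr55 lie to its left together with Cnr2.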

How the data were processed

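Total RNA-seq was measured in 2 libraries of 1 group, with groups and replicate numbers as the labels give them. The authors made all values, per the file headers and a readme, on mm10 with GENCODE M21, 1 library at a time. They deposited expected counts, TPM, a posterior SD (used here as a score of uncertain read assignment) and the percent of a gene per transcript in RSEM layout, and estimated counts and TPM per transcript in kallisto layout. The names RSEM and kallisto refer to these layouts, since the sources used here name neither aligner nor counting program. Reads were assigned to annotated transcripts, so intron sequence is counted where a retained-intron transcript holds it. No CAST sequence was used, and whether reads that differ from mm10 were missed was not tested.

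Rows that name no mouse gene, spike-ins among them, held 0.481% and 0.454% of counts and stayed out of library sizes. Expected counts were rounded to whole numbers for ratios, and 18906 genes averaging 10 counts or more were scaled by TMM (edgeR 4.0.16, R 4.3.3). Log2 ratios used CPM with a prior count of 2. Counting intervals are exact binomial at 95%, given the scaled library sizes, and compare these 2 libraries only. With 1 group of 2 libraries no hypothesis test was run. The calculation was tested on simulated data. Python 3.11.15 was used with pandas 2.3.3, numpy 2.4.6, scipy 1.17.1 and matplotlib 3.10.9.

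The members and lists were chosen with earlier results of these data known. Named were all members, transcripts with at least 10% of a gene's TPM in either table, and the 4 highest detected genes of each list plus any at 0 in both libraries. Other names were added after their values were seen. Alternatives were DESeq2 1.42.0 size factors, library size and spike-in scaling, other filters and prior counts, the kallisto-layout table, TPM over nuclear protein-coding genes, shares of counts and leaving out each library. Depth limits Cnr2 most, at 41 and 36 counts. Promoter windows are from RefSeq (GRCm38.p6) and coding runs from GENCODE M21.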

Additional observations from a re-analysis of the deposited data

How the results depend on the processing

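No paired analysis was possible because there was 1 group. The number of detected members was 9, and the number past 2-fold was 0, under every threshold, filter, table and scaling run for them. The members' median level of 42.7 TPM moved to 39.5 in the kallisto-layout table and to 95.4 when TPM was summed over nuclear protein-coding genes only, and on that scale Cnr2 averaged 1.12. Members whose counting interval left out 0 numbered 4 with TMM and DESeq2 size factors, 3 with library size and 8 with spike-in scaling. The shares of tested genes were 25.8% with TMM, 25.9% with DESeq2 size factors, 25.3% with library size and 33.0% with spike-in scaling. The median log2 ratio of tested genes was −0.002 with TMM and 0.0691 with spike-in scaling, so that scaling shifted genes in general. With the kallisto-layout table the ratio of 2-AG hydrolases to diacylglycerol lipases moved to 4.56 and Mgll over Abhd6 to 2.72. Counting transcripts with the serine codon, an alternative chosen after seeing the data, moved the first ratio to 3.75 and Faah over Napepld from 6.10 to 3.09. The median coding share of 93.0% moved to 91.8% in that table and to 99.0% by counts. The cause of these shifts was not tested. Leaving out each library gave 41.4 to 43.98 TPM for the median level, 4.32 to 4.38 for the hydrolase to lipase ratio, 97.0 to 154.5 for Cnr1 over Cnr2 and 92.3 to 93.6% for the median coding share. Of 179 alternative values 140 stayed within the replicate spread or the count limit and 39 moved. Of 130 for single genes, 30 moved. With 2 libraries, leaving out a library always gives a value within the SD. For levels, ratios between members and shares, those alternatives thus could not move. The rescaling to nuclear protein-coding genes moved every level. The tally is therefore no measure of robustness. Changes of sign were not scored, and the Mgll log2 ratio was 0.0075 with TMM and −0.0043 with library size. Counts under about 100 and splits between transcripts with a large posterior SD are the least certain values.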
